A study of Homo sapiens with 6 samples.

Results

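The 10 long noncoding transcripts described here carry small nucleolar RNAs (snoRNAs) in their introns. They were followed in 5637, a human bladder cancer cell line, after transfection with a MAT1A plasmid. The 10 hosts, GAS5, ZFAS1, EPB41L4A-AS1, SNHG1, SNHG5, SNHG6, SNHG7, SNHG8, SNHG12 and SNHG15, were taken by symbol as transcripts of this class. The rule itself uses no measured value, but the 10 were chosen with earlier results of these data known. All 10 were found among the 13271 genes of the deposited table, and all 10 passed the filter on low values, which left 12866 tested genes. On the ratio of group means SNHG12 fell by 31.2%, SNHG5 fell by 16.4% and SNHG15 fell by 11.2%. The other 7 hosts did not pass the test.

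The study has 6 libraries. The control libraries (n = 3) came from cells given an empty vector, and those called MAT1A here (n = 3) from cells given a plasmid that carries MAT1A, the gene of an enzyme that makes S-adenosylmethionine. Both groups were transfected once with a lipid reagent at about 50% confluency and lysed 48 h later, so the transfection itself is shared by the groups. The labels name no stable clone. Whether replicates came from different cultures is not given in the labels, so p-values measure how far these libraries spread, which could be technical variation only. The design implies 1 comparison, MAT1A plasmid against empty vector, and the labels state no question about snoRNA hosts.

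A snoRNA host gene makes its stable product from its introns. After splicing, the intron is trimmed to a snoRNA, which guides either 2'-O-methylation (C/D box class) or pseudouridylation (H/ACA box class) of ribosomal and other RNAs. The methyl groups placed by C/D snoRNPs come from S-adenosylmethionine. The joined exons of many hosts have only short reading frames. They are nevertheless loaded onto ribosomes and then degraded by nonsense-mediated decay, a pathway that removes RNAs whose translation stops well before the last exon junction. Many of these genes start at a 5' terminal oligopyrimidine (TOP) tract, a C followed by a run of C and T, which they share with ribosomal protein genes.

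The starts of the hosts are shown first, because the TOP tract is what many genes of this class share with ribosomal protein genes. Each line holds 50 bases of RefSeq's GRCh38.p14 sequence on the gene's own strand, 20 before and 30 from the annotated start. Capitals mark a C and the C or T bases after it (at least 4) where that C lies within 5 bases of the start.
SNHG12 (chr1:28581844-28581893, minus strand): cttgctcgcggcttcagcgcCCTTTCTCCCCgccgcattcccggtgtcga
SNHG5 (chr6:85678704-85678753, minus strand): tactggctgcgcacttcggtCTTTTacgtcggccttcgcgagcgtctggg
ZFAS1 (chr20:49278622-49278671, plus strand): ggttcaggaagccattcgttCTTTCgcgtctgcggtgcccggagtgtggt
SNHG7 (chr9:136728155-136728204, minus strand): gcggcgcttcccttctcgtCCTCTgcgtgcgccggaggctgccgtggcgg
SNHG8 (chr4:118278742-118278791, plus strand): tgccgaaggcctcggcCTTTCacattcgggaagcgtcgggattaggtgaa
SNHG1 (chr11:62855856-62855905, minus strand): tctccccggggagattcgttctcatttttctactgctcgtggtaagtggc
EPB41L4A-AS1 (chr5:112160506-112160555, plus strand): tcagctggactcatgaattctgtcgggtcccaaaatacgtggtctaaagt
The run lay exactly at the start in SNHG12, SNHG5 and ZFAS1, and 1 base before it in SNHG7 and 4 bases before it in SNHG8. With 11 bases SNHG12 had the longest run of these 5, and the other 4 runs had 5 bases each. The window at the GAS5 start of RefSeq had no such run. In GENCODE 29 (GRCh38), 6 of the 29 GAS5 models share another start, and the sequence there begins with a run of 6 bases. Of the GENCODE models of SNHG1, 1 of 25 begins with such a run, and 0 of 10 of SNHG15, 0 of 4 of SNHG7 and 0 of 4 of EPB41L4A-AS1 do.
GAS5 model start (chr1:173867960-173867989, minus strand): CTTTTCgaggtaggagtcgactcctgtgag
Of the 8 host windows examined, 5 had the run near the start (62.5%) and 3 exactly at it (37.5%). Among all 35116 RefSeq start windows the shares were 21.1% and 4.07%, and among 84 windows of ribosomal protein genes in the table they were 70.2% and 57.1%. Windows for SNHG6 and SNHG15 were not used here. A match describes these letters only, and an annotated start need not be the one used in these cells.

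The 6 snoRNAs printed next are among the 7 that RefSeq places in the 3 hosts that fell. SNORD50A of SNHG5 is not printed. RefSeq places 35 snoRNA genes inside the 10 hosts, 25 named SNORD (C/D box), 9 named SNORA (H/ACA box) and 1 without such a name. GAS5 holds 11 and SNHG1 9, against 4 in SNHG12, 3 in ZFAS1, 2 each in SNHG5 and SNHG7, and 1 each in EPB41L4A-AS1, SNHG6, SNHG8 and SNHG15. Sequences are GENCODE 29 transcripts on GRCh38. Capitals mark an exact TGATGA (C box) within 20 bases of the 5' end, the last CTGA (D box) within 16 bases of the 3' end, or ACA exactly 3 bases before the 3' end.
SNORD50B in SNHG5 (chr6:85677589-85677658, minus strand): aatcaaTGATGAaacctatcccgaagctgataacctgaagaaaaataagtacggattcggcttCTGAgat
SNORD99 in SNHG12 (chr1:28578749-28578822, minus strand): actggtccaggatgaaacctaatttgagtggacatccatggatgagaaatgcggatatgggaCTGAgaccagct
SNORA16A in SNHG12 (chr1:28580920-28581054, minus strand): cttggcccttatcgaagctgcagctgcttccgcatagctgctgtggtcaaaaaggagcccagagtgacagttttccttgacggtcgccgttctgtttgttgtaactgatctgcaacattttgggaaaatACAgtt
SNORA61 in SNHG12 (chr1:28579764-28579893, minus strand): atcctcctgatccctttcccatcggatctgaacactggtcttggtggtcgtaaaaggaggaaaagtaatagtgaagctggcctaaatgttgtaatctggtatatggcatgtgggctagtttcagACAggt
SNORA44 in SNHG12 (chr1:28580381-28580512, minus strand): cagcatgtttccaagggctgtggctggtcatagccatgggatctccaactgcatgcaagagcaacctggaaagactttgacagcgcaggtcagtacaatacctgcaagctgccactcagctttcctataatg
SNORA9 in SNHG15 (chr7:44985378-44985510, minus strand): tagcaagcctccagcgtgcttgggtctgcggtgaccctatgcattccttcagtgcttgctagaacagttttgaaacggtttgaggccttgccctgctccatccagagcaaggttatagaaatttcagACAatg
SNORD99 lies in an intron of 13 SNHG12 models and in an exon of 0. SNORA16A lies in an intron of 11 SNHG12 models and overlaps an exon in 4. SNORA44 had no ACA at that place, and SNORD99 no exact TGATGA. None of the 35 snoRNAs (0 of 35) had a row of its own in the table, so the values below are those of host rows and give no snoRNA levels. Whether reads of snoRNA or intron sequence inside annotated host exons are among them was not tested.

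The spliced models of the hosts share the short reading frames known for the class. Over the GENCODE 29 models with an intron and no retained-intron label, the frame from the first ATG had a median of 33.0 codons in SNHG12, 35.0 in SNHG5 and 17 in SNHG15. In GAS5 it was 35.0, in SNHG1 44.5 and in SNHG7 65.5. That frame stopped at least 50 bases before the last exon junction in 7 of 7 such models of SNHG12, 18 of 19 of SNHG5 and 8 of 10 of SNHG15. The same held for 10 of 10 models of GAS5 and 11 of 12 of SNHG1. The hosts that fell and those that did not pass therefore both hold models of this form.

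The table gives reads per gene on a CPM-like scale, on which each library adds up to between 997732 and 1015443, with 17390421 to 21570890 recovered reads per library. Each value is the read count times the worth of 1 read in that library, and 3 reads are worth 0.140 to 0.172. The label check held: MAT1A stood at 0.253 to 4.54 in the control libraries and at 1805 to 1917 in the MAT1A libraries. All 11 urothelial epithelial markers had rows. Their summed level was 10979 to 11227 in control and 11530 to 12682 in MAT1A libraries, which did not overlap, and 4 of the 11 rose and 1 fell. The part of these differences in the results below was not tested. Of 14 skeletal muscle markers 13 had rows, MB having none. Summed, they reached 481, 153 and 95.5 with empty vector (libraries 1, 2 and 3) against 94.3, 47.0 and 44.8 with the plasmid. HBB, a globin gene and the only 1 of 6 blood cell markers with a row (PTPRC, CD68, CD3E, MS4A1 and CD14 had none), ran from 26.2 to 52.2 in control and from 5.87 to 27.4 in MAT1A libraries. Of 6 fibroblast markers 3 had rows (summed level 142.5 to 259 in control, 121 to 128 in MAT1A), and DCN, LUM and PDGFRB had none. In bulk RNA, a marker's level does not show that cells of that type were present. Fewer cells of a type and less RNA per cell also cannot be told apart. The source of the muscle, globin and fibroblast transcripts in this cell line was not tested.

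SNHG12 fell furthest. It lies at chr1:28578538-28583132 on the minus strand of GRCh38 and is annotated as an antisense gene (ENSG00000197989.14). With empty vector SNHG12 stood at 35.0, 40.2 and 42.1 in libraries 1, 2 and 3, values that rest on 609, 795 and 872 reads. With the MAT1A plasmid it stood at 26.9, 27.5 and 26.2, resting on 499, 535 and 562 reads. Every MAT1A library lay below every control library, and the 3 MAT1A libraries lay close together while the controls spread. The MAT1A spread (2.41% of the mean) was below the counting error of 3.94%, so this closeness is not read as a trait. The control spread was 9.44%. The means were 39.1 ± 3.69 and 26.9 ± 0.648 (SD, n = 3 each), and the log2 change was -0.52 ± 0.062 (SE; limma, Benjamini-Hochberg adjusted p = 2.54e-05). The 95% interval ran from -0.65 to -0.39 on the log2 scale, and 1.65% of the tested genes had a lower log2 change.

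SNHG5 and SNHG15 fell by less. SNHG5 (ENSG00000203875.11; chr6:85660950-85678748, minus strand) carries SNORD50A and SNORD50B. It stood at 23.2, 24.8 and 24.6 with empty vector and at 19.7, 21.5 and 19.6 with the MAT1A plasmid (libraries 1, 2 and 3), on 365 to 510 reads. The groups did not overlap, and the nearest pair were MAT1A 2 and control 1. The mean went from 24.2 ± 0.853 to 20.2 ± 1.07 (SD, n = 3), and limma put the log2 change at -0.25 with an SE of 0.060 (adjusted p = 0.0129). That call was lost without control 2 (log2 change -0.23, adjusted p = 0.0531), control 3 (-0.24, 0.0645) or MAT1A 1 (-0.23, 0.0557).

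SNHG15 (ENSG00000232956.8; chr7:44983023-44986961, minus strand) carries SNORA9. Levels were 55.8, 56.3 and 57.8 with empty vector against 50.0, 51.2 and 49.6 with the MAT1A plasmid (libraries 1, 2 and 3), on 927 to 1197 reads. It had the smallest relative spread in the control group of the 10 hosts (1.77% of its mean, below its counting error of 3.09%). Its groups did not overlap. The mean went from 56.6 ± 1.00 to 50.3 ± 0.813 (SD, n = 3), and limma put the log2 change at -0.17 with an SE of 0.041 (adjusted p = 0.0128). Without control 3 the log2 change was -0.15 and the call was lost (adjusted p = 0.0775).

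In all, 3 of the 10 hosts fell and 0 rose, where 7.4% of all tested genes fell and 4.01% rose (limma adjusted p under 0.05; 11.4% in either direction). The libraries of the groups did not overlap for those 3 hosts, with MAT1A lower, and 15.6% of all tested genes were separated in that way. For 0 hosts did MAT1A lie wholly higher, against 14.7% of tested genes (30.3% in either direction). The median log2 change of the 10 was -0.024 against 0.0040 for all tested genes, with 5 hosts above 0 and 5 below. The same 3 hosts were called with the replicate number as a block, where 10.4% of all genes fell. At an adjusted p under 0.01 SNHG12 was the 1 host called. The 10 were chosen with earlier results of these data known, so these counts are not blind. Of 17 other noncoding hosts tested, 0 fell.

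**Figure D1:**
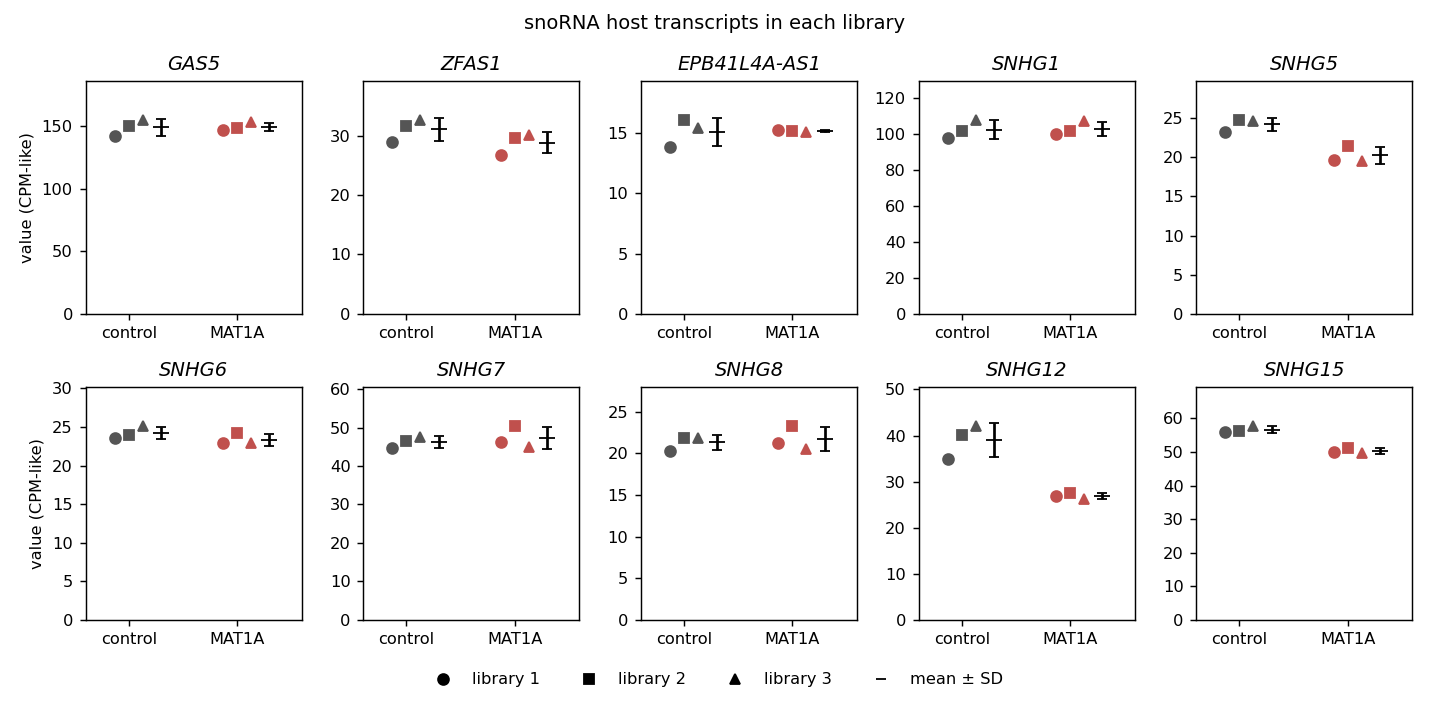
Value of each host on the deposited CPM-like scale (y axes from 0, scaled per gene) in the control and MAT1A groups, with 1 point per library (circle 1, square 2, triangle 3) and the mean ± SD of 3 libraries in black. SNHG12 sits at 35.0 to 42.1 in control and 26.2 to 27.5 in MAT1A libraries, and the groups overlap for the 7 hosts other than SNHG12, SNHG5 and SNHG15.

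Control 1, the library with the highest muscle and globin levels, had the lowest control value for 10 of the 10 hosts. The share of all tested genes lowest there was not computed, so the count is not read as a trait of the hosts. Because control 1 was the lowest control for all 10 hosts, leaving it out could only lower their log2 changes. Without control 1 the log2 change was -0.60 for SNHG12, -0.28 for SNHG5 and -0.18 for SNHG15, each still called (limma adjusted p = 4.95e-06, 0.0222 and 0.0373). Among the MAT1A libraries, MAT1A 3 was lowest for 7 hosts and MAT1A 2 highest for 6, again with no share over all tested genes computed. Summed over the 10 hosts, the controls held 485, 513 and 530 and the MAT1A libraries 476, 493 and 490. Leaving SNHG12 out of the sum gave 450.2, 473 and 488 against 449.5, 466 and 464. The part of the muscle and globin transcripts in these results was not tested. The values without control 1 cannot test it, since their direction was fixed by the order of the controls.

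ZFAS1, the antisense transcript at the 5' end of ZNFX1, was lower in the MAT1A library of each number but did not pass. It lies at chr20:49278178-49295738 on the plus strand and carries SNORD12, SNORD12B and SNORD12C. ZFAS1 stood at 28.9, 31.6 and 32.7 with empty vector and at 26.8, 29.7 and 30.1 with the MAT1A plasmid (libraries 1, 2 and 3). The groups overlapped, since MAT1A 2 and MAT1A 3 lay above control 1. The log2 change was -0.10, with a 95% interval from -0.23 to 0.024 (limma adjusted p = 0.293; 0.166 with the replicate block). The differences within numbers 1, 2 and 3 were -0.11, -0.090 and -0.12 on the log2(value + 1) scale. Of the 10 hosts, 4 were lower in the MAT1A library of every number: SNHG12, SNHG5, SNHG15 and ZFAS1. For SNHG12, SNHG5 and SNHG15 this follows from groups that did not overlap. The share of all tested genes lower in every number was not computed, so the count is not read further.

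GAS5 and SNHG1, the hosts with the highest level per kilobase of exon, had group means that differed by 0.220% and 0.610%. GAS5, growth arrest specific 5, is known to build up when growth or translation stops. GAS5 stood at 142, 151 and 155 with empty vector and at 147, 148 and 153 with the MAT1A plasmid (libraries 1, 2 and 3). The log2 change was 0.0039, and its 95% interval runs from -5.01% to 5.85% (limma adjusted p = 0.962). SNHG1 carries SNORD22 and a run of other C/D snoRNAs. Its levels were 97.8, 102 and 108 with empty vector against 100.1, 102 and 108 with the plasmid. Its log2 change was 0.0092, with an interval from -0.079 to 0.098 (adjusted p = 0.917). A change of the size seen in SNHG12 or SNHG5 lies outside both intervals.

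The other 4 hosts did not pass either. SNHG7, the host of SNORA17A and SNORA17B, was at 44.7, 46.4 and 47.6 with empty vector against 46.2, 50.4 and 44.9 with the plasmid (log2 change 0.028, limma adjusted p = 0.766). SNHG8, the host of SNORA24, was at 20.3, 21.8 and 21.8 against 21.3, 23.3 and 20.5 (0.024, adjusted p = 0.851). In both of these hosts MAT1A 2 was the highest of the 6 libraries.

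SNHG6, the host of SNORD87, was at 23.6, 24.0 and 25.1 with empty vector against 22.9, 24.3 and 22.9 with the plasmid (log2 change -0.051, limma adjusted p = 0.612). EPB41L4A-AS1, the host of SNORA13, was at 13.8, 16.1 and 15.4 against 15.3, 15.2 and 15.1 (0.0094, adjusted p = 0.952). Its MAT1A libraries lay within the control range, with an SD of 0.102 against 1.18. That MAT1A spread (0.668% of the mean) was below the counting error of 5.80%. EPB41L4A-AS1 had the fewest reads of the 10 hosts, 241 to 324, and its 95% interval ran from -9.19% to 11.6%. That of SNHG8 ran from -7.33% to 11.6%, and the log2 change of SNHG15 lies below both intervals.

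**Figure D2:**
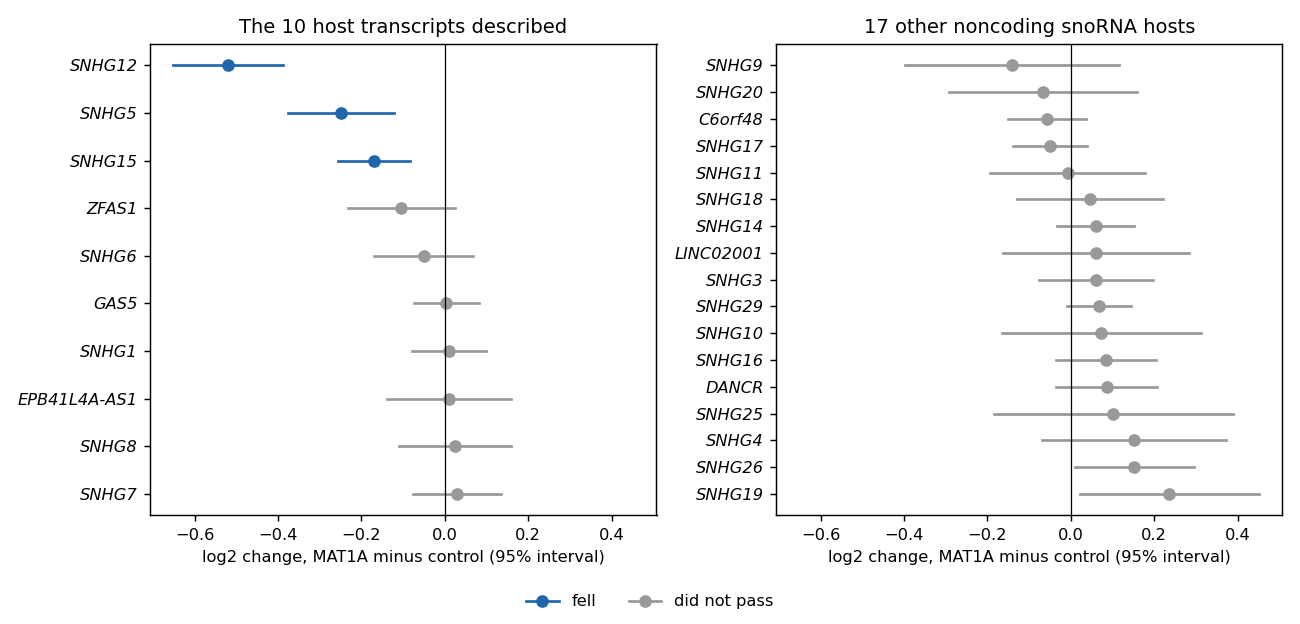
Log2 change (x axis, log2(value + 1) of the MAT1A group less that of the controls) with its 95% interval from limma for the 10 hosts (left) and for 17 other noncoding snoRNA hosts (right). The intervals of SNHG12, SNHG5 and SNHG15 (blue) lie below 0, and none of the 17 on the right passed the test after adjustment over all genes.

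Per kilobase of annotated exon, the order of the hosts in control cells was GAS5, SNHG1, SNHG8, SNHG6, SNHG15, ZFAS1, SNHG7, SNHG12, SNHG5 and EPB41L4A-AS1. The level per kilobase ran from 41.1 ± 1.85 for GAS5 through 23.1 ± 0.977 for SNHG8 to 4.52 ± 0.351 for EPB41L4A-AS1 (SD, n = 3). Of neighbours in this order, only SNHG12 (9.16 ± 0.865) and SNHG5 (8.63 ± 0.304) had overlapping control libraries. In the MAT1A libraries these 2 changed places, at 6.30 ± 0.152 for SNHG12 and 7.22 ± 0.382 for SNHG5, and the other 8 kept theirs. The exon length joins all models of a gene, retained introns included, so the level per kilobase of a host with such models is a low estimate.

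The library kit does not mark strand, so reads of a host and of a gene over it on the other strand cannot be told apart. Genes that overlap a host, or start beside it, are therefore given with it. SLC3A2, the heavy chain of amino acid transporters, starts 188 bases from SNHG1 on the other strand. It rose from 667 ± 8.83 to 773 ± 33.4 (SD, n = 3; log2 change 0.21, limma adjusted p = 0.000353), beside 0.0092 for SNHG1. ZNFX1, which starts 248 bases from ZFAS1 and shares 249 exon bases with it, fell from 100.5 ± 1.55 to 91.0 ± 0.957 (-0.14, adjusted p = 0.0129), beside -0.10 for ZFAS1. The ZNFX1 call was lost without control 2 (adjusted p = 0.0609) or MAT1A 1 (0.0549). The differences between the changes of these neighbours were not tested.

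ZBTB37, whose start lies 800 bases from that of GAS5, was at 10.6 ± 1.10 and 10.6 ± 1.05 (SD, n = 3; log2 change 0.0042, limma adjusted p = 0.983). EPB41L4A shares 1659 exon bases with EPB41L4A-AS1 and was low, at 1.91 ± 0.321 and 2.43 ± 0.252 (0.24, adjusted p = 0.231). TRNAU1AP shares 8 exon bases with SNHG12 and was at 29.98 ± 0.843 and 28.6 ± 1.21 (-0.067, adjusted p = 0.458), beside the fall of SNHG12. GAS5 shares 42 exon bases with GAS5-AS1, SNHG6 365 with MCMDC2 and SNHG7 1094 with FAM69B, partners that were not analysed here.

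Other noncoding snoRNA hosts gave no calls. Of 21 listed, 17 were tested and 0 rose or fell (limma), beside 11.4% of all tested genes called in either direction. An unadjusted p under 0.05 was found for 2 of them and for 3373 of all 12866 tested genes (limma). Some were low, such as SNHG25, SNHG9 and SNHG10 at 1.74, 2.03 and 3.87 in control. A filter of at least 5 kept 12 of them. On recovered reads edgeR, DESeq2 and limma-voom called 0 of the 17 as well. With a length and GC correction and the replicate block together, 1 was called, SNHG26 (adjusted p = 0.0462). Their median log2 change was 0.061, with 12 above 0 and 5 below. The 2 with the smallest p were SNHG19 (4.25 ± 0.305 in control, 5.19 ± 0.548 in MAT1A; log2 change 0.24, adjusted p = 0.150) and SNHG26 (16.9 ± 0.410 and 18.9 ± 1.53; 0.15, adjusted p = 0.163). SNHG29 was at 157 ± 4.08 in control, and its log2 change was 0.068 (adjusted p = 0.252).

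Protein-coding snoRNA hosts moved mostly upward where they moved. Among 53 tested, 11 rose and 1 fell, beside 4.01% and 7.4% of all tested genes. With the replicate block 31 rose and 2 fell, beside 7.57% and 10.4% of all tested genes. The median log2 change was 0.078. The count that rose came to 1 without control 1, 3 without control 3 and 7 without control 2 or without MAT1A 2. ATP5F1B, a subunit of ATP synthase, went from 878 ± 12.8 up to 992 ± 25.0 (SD, n = 3; log2 change 0.18), and NOP56, a core protein of C/D snoRNPs, from 319 ± 6.17 to 354 ± 15.5 (0.15). TCP1, a chaperonin subunit, rose by 0.12 on the log2 scale. TAF1D, a subunit of the RNA polymerase I factor SL1, was the 1 host that fell, from 122 ± 3.94 to 103 ± 3.77 (-0.24, limma adjusted p = 0.000445). The call of TCP1 was lost without control 1 (adjusted p = 0.132) or control 3 (0.0543), and that of NOP56 without control 1 (0.0609).

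Of 17 core proteins and assembly factors of snoRNPs, 5 rose and 0 fell, against 9 and 1 under the replicate block (over all tested genes 4.01% rose, and 7.57% under the block). The median log2 change was 0.084, and the count that rose was 1 without control 1, 2 without control 3 and 3 without control 2, MAT1A 1 or MAT1A 2. Besides NOP56, they include NOP10, a core protein of H/ACA snoRNPs, which went from 80.7 ± 1.87 up to 90.9 ± 1.78 (SD, n = 3; log2 change 0.17, limma adjusted p = 0.00611). NOLC1, a nucleolar chaperone of snoRNPs, rose from 258 ± 6.20 to 282 ± 6.95 (0.13, adjusted p = 0.0155). That call was lost without control 1 (adjusted p = 0.103), control 3 (0.0551) or MAT1A 1 (0.0531).

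The factors of nonsense-mediated decay gave no calls, while most of a list of messenger RNAs known as its targets fell. Of 24 decay factors, 0 rose or fell (limma), beside 11.4% of all tested genes called in either direction. An unadjusted p under 0.05 was found for 3 of them and for 3373 of all 12866 tested genes (limma). On recovered reads edgeR, DESeq2 and limma-voom called 0 of the factors too. The replicate block gave 2 higher and 1 lower, beside 7.57% and 10.4% of all tested genes. The median log2 change of the factors was 0.028. The 2 with the smallest p were ETF1, a release factor (log2 change 0.084, adjusted p = 0.0743), and EIF4A3, of the exon junction complex (0.089, adjusted p = 0.0879). Of 17 target messenger RNAs, 10 fell and 0 rose, with a median of -0.12, beside 7.4% of all tested genes that fell. The count that fell was 8 without control 1, 7 without control 3 and 7 without MAT1A 1. With the replicate block 13 targets were lower and 1 higher, beside 10.4% and 7.57% of all tested genes. The 3 with the smallest p were the stress-response genes GADD45A, ATF3 and GADD45B, with log2 changes of -1.05, -1.16 and -0.73. GADD45B fell from 67.5 ± 4.83 to 40.3 ± 1.78 (SD, n = 3; limma adjusted p = 5.89e-08). These genes are also known to answer stress through transcription. The list also holds splicing-factor genes, and each value joins all isoforms of a gene, decay targets or not. For no gene of the list can the level alone tell transcription and decay apart. The part of decay was not tested.

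**Figure D3:**
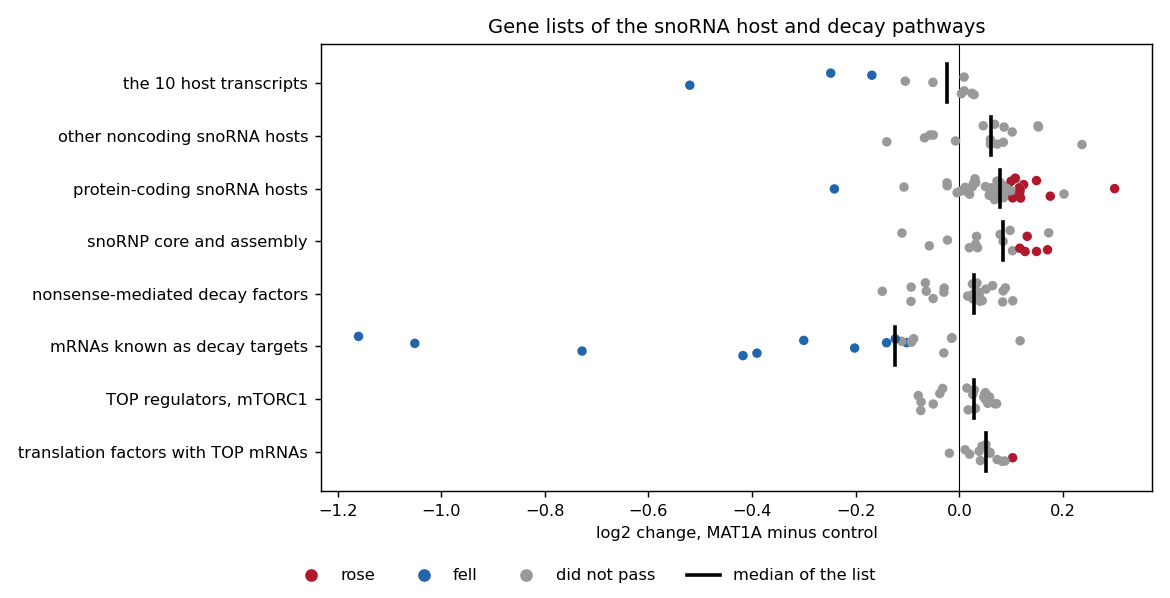
Log2 change of each tested gene (x axis, as the MAT1A group less the controls) in 8 lists, with the list's median as a black bar; red points rose, blue fell and grey did not pass. The 10 hosts have a median of -0.024 and the target messenger RNAs of -0.12, while protein-coding hosts have 0.078.

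Regulators and other carriers of the TOP tract were read beside a share of 11.4% called, in either direction, over all tested genes. Of 19 TOP regulators and mTORC1 components, 0 rose or fell (limma), with a median log2 change of 0.029. An unadjusted p under 0.05 was found for 1 of them, beside 3373 of all 12866 tested genes (limma). edgeR, DESeq2 and limma-voom on recovered reads called 0 of them, and 2 rose with length and GC correction and the replicate block together. LARP1, which binds TOP messenger RNAs, was at 592 ± 2.28 and 616 ± 14.1 (SD, n = 3; 0.058, adjusted p = 0.209), and TIAL1 had the smallest p (-0.079, adjusted p = 0.149). Of 13 tested translation factors with TOP messenger RNAs, 1 rose and 0 fell, with a median of 0.051. Under the replicate block 3 rose, beside 7.57% of all tested genes. The 1 called without the block was EEF1B2, an elongation factor subunit and itself a snoRNA host. Its log2 change was 0.10, at the edge of the threshold (limma adjusted p = 0.0498). Its call was lost without control 1 (adjusted p = 0.200), control 3 (0.203), MAT1A 1 (0.0655) or MAT1A 2 (0.101). It was also lost with no filter on low values (adjusted p = 0.0507), with 3 other scalings (0.0503 with DESeq2's size factors, 0.0565 with the upper quartile, 0.0670 with library sizes without MAT1A), and on recovered reads with edgeR (0.0551) or DESeq2 (0.0575).

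By library, the 10 hosts' mean standardised profile was highest in control 3 and lowest in MAT1A 1. The 5 other genes whose values followed it most closely, of 10541 with a mean of at least 5, were DUSP11 (Pearson r = 0.98), PRSS3 (0.98), HNRNPDL (0.97), GLTP (0.97) and METTL18 (0.96). This likeness is a description over 6 libraries of 2 groups, picked as the highest of many, and carries no p. None of the 5 was called between the groups (limma adjusted p from 0.308 to 0.808).

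**Figure D4:**
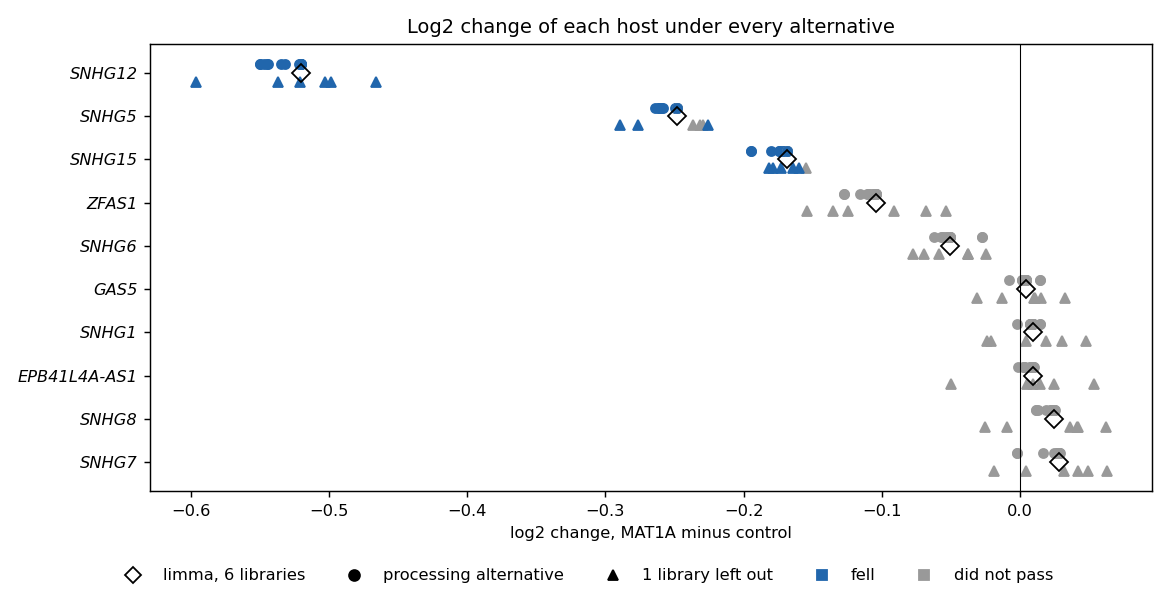
Log2 change of each host (x axis) in the limma fit of all 6 libraries (open diamond), under 14 processing alternatives (circles) and with 1 library left out (triangles); blue marks fell and grey did not pass. SNHG12 stays between -0.60 and -0.47 and is blue throughout, while triangles of SNHG5 and SNHG15 turn grey; their grey circle at an adjusted p under 0.01 lies under a blue one.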

How the data were processed

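RNA-seq libraries (3 per group) were compared. The deposited signal values are CPM-like, made per the submitters' processing notes with tools that include the aligner STAR (2.6.0c), the counter featureCounts and edgeR. No source used here gives the genome build. Dividing each column by the smallest gap between its values gave whole reads for 100% of values (tolerance 0.001), so depth is known. limma 3.58.1 (R 4.3.3) was fitted to log2(value + 1) of the 12866 genes at 1 or more in at least 3 libraries, with Benjamini-Hochberg adjustment over all of them and a threshold of 0.05, and was tested on simulated data. Fold changes on this scale are slightly understated for low genes. Same-numbered libraries deviated together (r = 0.25, 0.18 and 0.19 over genes for numbers 1, 2 and 3), so the number was also fitted as a block. This comes from the data, and no label says that the numbers mark pairs. Alternatives were other scalings, filters and a pseudocount of 0.1, edgeR 4.0.16 and DESeq2 1.42.0 on recovered reads, length and GC correction, the block and each library left out. Libraries of one group differed by more than sampling noise (chi-square per gene 1.86 to 4.36).

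Named besides the 10 hosts are, per list, up to 3 genes called in each direction with the smallest p (with none called, the 2 smallest), neighbours that share exon bases or start within 2000 bases, MAT1A and the 5 genes closest in profile. SNHG29 was named after its values were seen. Members and lists were chosen with earlier results of these data known. Of 13271 symbols 13212 matched GENCODE 29 (GRCh38).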

Additional observations from a re-analysis of the deposited data

How the results depend on the processing

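SNHG12 was called under each of 14 processing alternatives (log2 change -0.55 to -0.52) and with each library left out (-0.60 to -0.47). The same 3 hosts were called under 13 of the 14, the replicate block included, which changed no host's call, and at an adjusted p under 0.01 the count was 1. With 1 library left out it ran from 1 to 3, lowest without control 3. Genes called over the whole table, 1468 in all, came to 957 with DESeq2 on reads, 663 at an adjusted p under 0.01, 2310 with the replicate block and 2408 with length and GC correction and the replicate block. With 1 library left out the count ran from 749 (without control 3) through 782 (without control 1) to 1656 (without MAT1A 3). The cause was not tested.

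Log2 changes near 0 changed sign, with none called. With library sizes taken without MAT1A, EPB41L4A-AS1 was at -0.0018, GAS5 at -0.0080, SNHG1 at -0.0027 and ZBTB37 at -0.0067. With length and GC correction, with or without the replicate block, SNHG7 was at -0.0026. With 1 library left out, EPB41L4A-AS1 ran from -0.050 to 0.054, GAS5 from -0.031 to 0.033, SNHG1 from -0.024 to 0.047, SNHG7 from -0.019 to 0.063, SNHG8 from -0.026 to 0.062 and ZBTB37 from -0.063 to 0.081. The cause was not tested. Of 200 values of the hosts under alternatives, 181 kept direction and call, 13 changed sign and 6 lost the call. Counting error alone was 1.85% for GAS5 and 5.80% for EPB41L4A-AS1 per library. In GAS5 the libraries spread wider than that (4.49% of the mean in control, 2.13% in MAT1A). In SNHG15 they spread less (1.77% and 1.62%) than its counting error of 3.09%. With 3 libraries per group these spreads are rough, and the part of read counting in them was not tested.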
